A study of Homo sapiens with 12 samples.

Results

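The genes described here lie on the short arm of human chromosome 4 (4p), between ZNF595 near the chromosome end and RELL1, at 53321 to 37686376 of chromosome 4 (GRCh38), a stretch of 37.6 Mb. The stretch was picked because transcripts from it were lower in the group named R1 than in both control and the group named R2, and 53 of its genes were taken as members. Of these, 52 are among the 12931 genes that each file lists, while ZNF518B is not listed and was not analysed here. The lower values in R1 therefore chose the members and are given as a description, without a test. R2 against control was not itself a contrast of the rule and is given with its test for each gene. The R2 and control values did enter the choice. This works against genes that are low in R2 and toward genes that are high in control, so counts of members in that comparison are a description too. The adjusted p-values of single members carry the same limit.

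The libraries come from WM1366, a human melanoma cell line in long-standing use whose NRAS gene is mutated, in 3 groups of 4. Control libraries carry the label of a control diet, and R1 and R2 that of a diet with MEK and CDK4/6 inhibitors. The series concerns xenograft tumours that progressed on such a diet, whereas the labels also describe melanoma cells in culture and name palbociclib, a CDK4/6 inhibitor (0.1 µM), and PD0325901, a MEK inhibitor (1 nM), for all 12 samples, control included. What separates R1 from R2, whether replicates are separate tumours or cultures, and the age of any host animal are not stated in the labels, and the p-values speak of the spread among these 12 libraries only. Reads from mouse host cells were not separated here.

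Depth was 20003891 to 39009384 reads per library in the listed genes. Within groups, libraries correlated at r of 0.968 to 0.991 in R1, 0.975 to 0.996 in R2 and 0.983 to 0.996 in control on the log2 scale across genes, and R1 replicate 2 was the least like the others of its group (0.968 to 0.977). Among 13 melanocyte and melanoma markers 6 were listed (MITF, PMEL, PAX3, AXL, CSPG4 and MCAM), and MLANA, TYR and SOX10 were not. The summed value of the 6 was 1509 to 1736 in R1, 2249 to 2508 in R2 and 2348 to 2625 in control. The sum was lower in R1 without overlap, but the 6 genes did not move together. Against control, 3 of them were lower and 2 higher in R1 (limma, adjusted p under 0.05). Their median change was -0.11 on the log2 scale. The summed value of 5 listed endothelial markers of 10 ranged from 414 to 551 in R1, 138 to 188 in R2 and 166 to 208 in control. That of 5 fibroblast and pericyte markers of 10 ranged from 513 to 668, 741 to 826 and 626 to 740. The part of these shifts in the results below was not tested. CSF1R was the single leukocyte marker of 10 listed, at a mean of 2.87 in R1 and 1.98 in control, with PTPRC and CD68 not listed, and KRT10 the single keratinocyte marker of 6.

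Genes of one chromosome arm need share no function, and what these have in common is their position. Distal 4p is best known from Wolf-Hirschhorn syndrome, in which the arm's end is missing from 1 chromosome copy and for which WHSC1 (now NSD2) is named. It also holds HTT, the Huntington disease gene. Values below are normalised read counts per library. They are not divided by transcript length, so levels are compared between groups and not between genes. Fewer copies of a transcript per cell and fewer cells that make it cannot be told apart in bulk RNA.

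Upstream sequences of 2 pairs of members from the same region are shown first, because each pair has a gene at a much lower value in R1 beside a gene at the control value. WHSC1 and MXD4 make up the first pair, and WFS1 and MSX1 the other. Each line gives the 250 bases before the RefSeq transcription start (GRCh38.p14), on the gene's strand, 5′ to 3′. The bases after the start were found somewhere in a GENCODE transcript on the same strand for 2 of the 4 windows shown. This held for 31 of all 42 member windows, and 0 were found on the opposite strand. For the rest these bases were not found, and the exact start was not checked for any window. The windows are chr4:1871143-1871392 (plus strand) for WHSC1, chr4:2262110-2262359 (minus strand) for MXD4, chr4:6269600-6269849 (plus strand) for WFS1 and chr4:4859415-4859664 (plus strand) for MSX1. Capitals mark the GC box GGGCGG or its complement CCGCCC, overlapping matches included.
WHSC1: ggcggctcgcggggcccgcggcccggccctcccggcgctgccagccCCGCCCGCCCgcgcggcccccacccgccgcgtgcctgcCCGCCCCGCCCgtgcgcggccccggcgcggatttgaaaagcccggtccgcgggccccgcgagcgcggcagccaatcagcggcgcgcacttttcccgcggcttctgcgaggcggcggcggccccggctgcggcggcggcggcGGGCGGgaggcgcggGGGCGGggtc
MXD4: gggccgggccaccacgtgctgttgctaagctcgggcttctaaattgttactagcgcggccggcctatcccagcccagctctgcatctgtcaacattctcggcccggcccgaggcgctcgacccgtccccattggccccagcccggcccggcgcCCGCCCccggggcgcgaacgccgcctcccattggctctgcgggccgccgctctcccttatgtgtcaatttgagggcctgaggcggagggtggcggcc
WFS1: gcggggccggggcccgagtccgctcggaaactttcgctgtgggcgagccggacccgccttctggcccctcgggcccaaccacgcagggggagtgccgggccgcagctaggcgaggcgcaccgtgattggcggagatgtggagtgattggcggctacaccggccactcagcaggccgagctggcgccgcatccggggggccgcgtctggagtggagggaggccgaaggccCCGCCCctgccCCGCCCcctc
MSX1: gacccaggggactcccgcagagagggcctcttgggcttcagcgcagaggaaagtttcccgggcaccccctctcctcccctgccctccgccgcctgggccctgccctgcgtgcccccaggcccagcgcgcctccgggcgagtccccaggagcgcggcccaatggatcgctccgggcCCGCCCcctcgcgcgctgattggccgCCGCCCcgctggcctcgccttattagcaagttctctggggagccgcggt
The GC box occurred 6 times in the WHSC1 window, 1 time in MXD4, 2 times in WFS1 and 2 times in MSX1. RefSeq windows were found for 42 of the 52 members. The GC box, read on both strands, was in 31 of these (73.8%), against 68.1% of 9925 listed genes with a window and 42.3% of 27305 windows in the table. It was in 24 of the 33 windows of members called lower in R1 (72.7%) and in 7 of the other 9 (77.8%). CCAAT, on both strands, was in 14 of 42 windows (33.3%, against 35.7% of listed genes), and TATAAA in 1 of 42 (2.4%, against 5.0%). The median member window had 28.5 CG dinucleotides, against 21 for listed genes. CCAAT was in 9 of the 33 windows of members called lower (27.3%) and in 5 of the other 9 (55.6%), and TATAAA in 1 and 0. The GC box and CCAAT thus occurred in both kinds of member, and all of these counts are a description of the window only.

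In R1, transcripts of the members stood at a median of 60.7% of the control mean, with a first quartile of 50.7% and a last quartile of 72.9%. The median log2 fold change was -0.71, against 0.01 over all genes. A gene was called at an adjusted p under 0.05, and 39 of the 52 members were called lower and 2 higher in R1 than in control, where 21.4% of all genes were called lower and 22.4% higher. In 40 members all 4 R1 libraries lay below all 4 control libraries, as they did for 19.0% of all genes. In 33 they lay below all R2 libraries too (10.4% of all genes). Against R1, 38 members were called higher in R2 and 2 lower, beside 22.8% and 24.0% of all genes. The rule chose the members on these contrasts, so nothing is read from these counts.

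The shift was of like size in the 4 R1 libraries. The median over members of the log2 ratio to the control mean was -0.75, -0.81, -0.74 and -0.72 in R1 replicates 1 to 4, while the median over all genes was between -0.02 and 0.02. In R2 it was -0.10, -0.05, 0.02 and 0.03, and in the control libraries it ran from -0.04 to 0.02. The rule itself set R1 below the other groups, so these medians show only how alike the libraries of a group were. Without R1 replicate 2, the library least like its group, 39 members were still called lower and the median was -0.69.

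**Figure D1:**
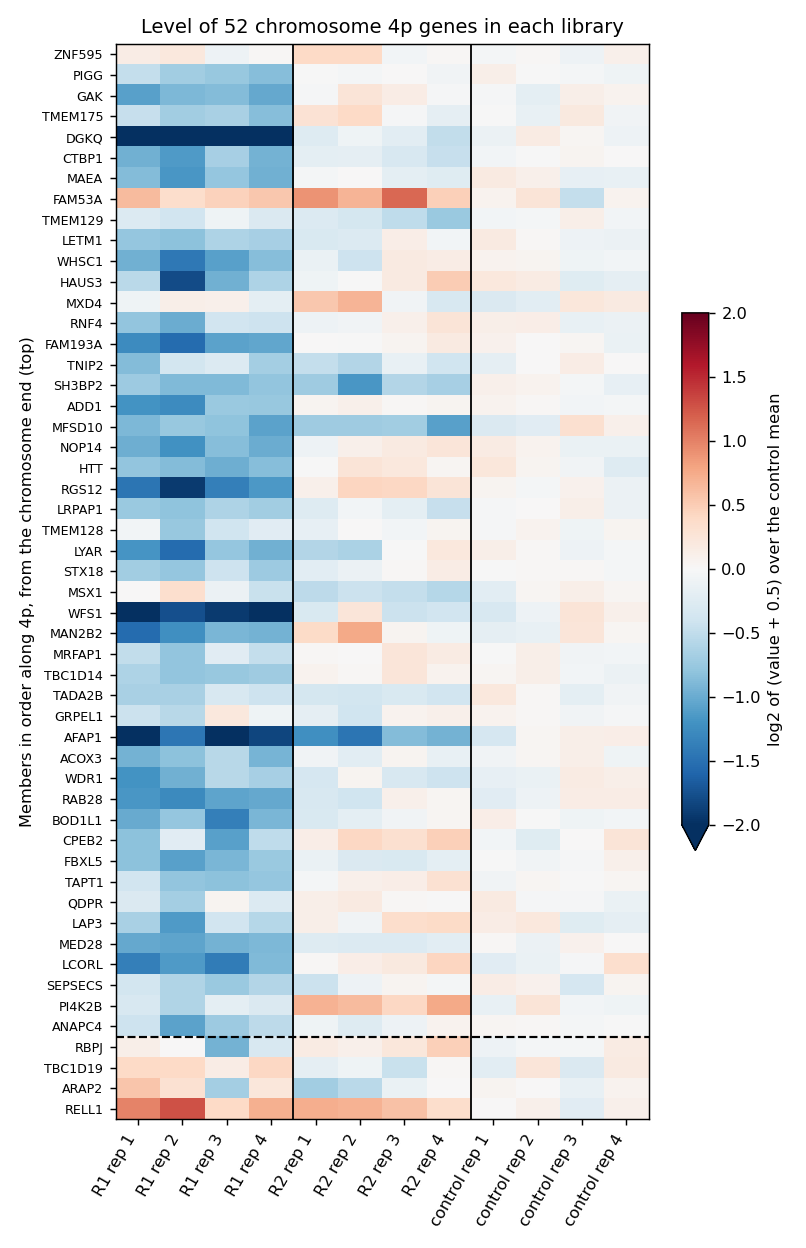
Heat map of the 52 members (rows, in order along 4p from the chromosome end) in 12 libraries (columns), coloured by the log2 of (value + 0.5) over the control mean. Blue cells fill the 4 R1 columns from PIGG to ANAPC4 with few breaks such as FAM53A, MXD4 and MSX1, and stop at the dashed line, below which RBPJ, TBC1D19, ARAP2 and RELL1 are pale or red in most R1 libraries.

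The lower values did not run through to RELL1. They ended between ANAPC4, the last member called lower, which ends at 25418498, and SMIM20, a listed gene outside the member list that starts at 25914220, 496 kb further on. This border was seen in the values, so it has no test. Of the 48 members before it 39 were called lower, and the median log2 fold change was -0.76. Of the 4 beyond it (RBPJ, TBC1D19, ARAP2 and RELL1) 0 were called lower and 1 higher, with a median of 0.23. Against control, the label of a run of lower genes therefore holds for the outer 25.4 Mb and not for these 4 members. Against R2, RBPJ was called lower in R1 (log2 fold change of R2 minus R1 0.53) and TBC1D19 higher (-0.51), while ARAP2 and RELL1 were not called.

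Genes of the stretch that are not members had the same pattern. Of 45 before the border 34 were called lower and 0 higher, with a median of -0.89, and of 4 beyond it 0 and 2. Among all 93 listed genes before the border 86 had a log2 fold change below 0. The whole stretch was picked for its low R1 values. The counts and medians of its other genes are therefore a description too, and nothing is read from them. Further along, 35 listed 4p genes beyond RELL1 had 2 called lower (5.7%) and 8 higher in R1, with a median of 0.26. The 318 listed genes of the long arm had 65 lower (20.4%) and 47 higher, with a median of -0.03. These counts stand beside 21.4% of all genes called lower and 22.4% called higher, and the rises beyond RELL1 were near that share. At the inner end the nearest listed genes were PGM2, TBC1D1 and KLF3, with log2 fold changes of 1.25, 0.27 and 0.09. PGM2, a sugar phosphate mutase, rose from 60.1 ± 3.13 in control to 144 ± 18.4 in R1 (SD, n = 4 each, limma adjusted p = 7.1e-06). TBC1D1 (adjusted p = 0.057) and KLF3 (adjusted p = 0.6) did not pass. No listed gene lies outward of ZNF595.

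**Figure D2:**
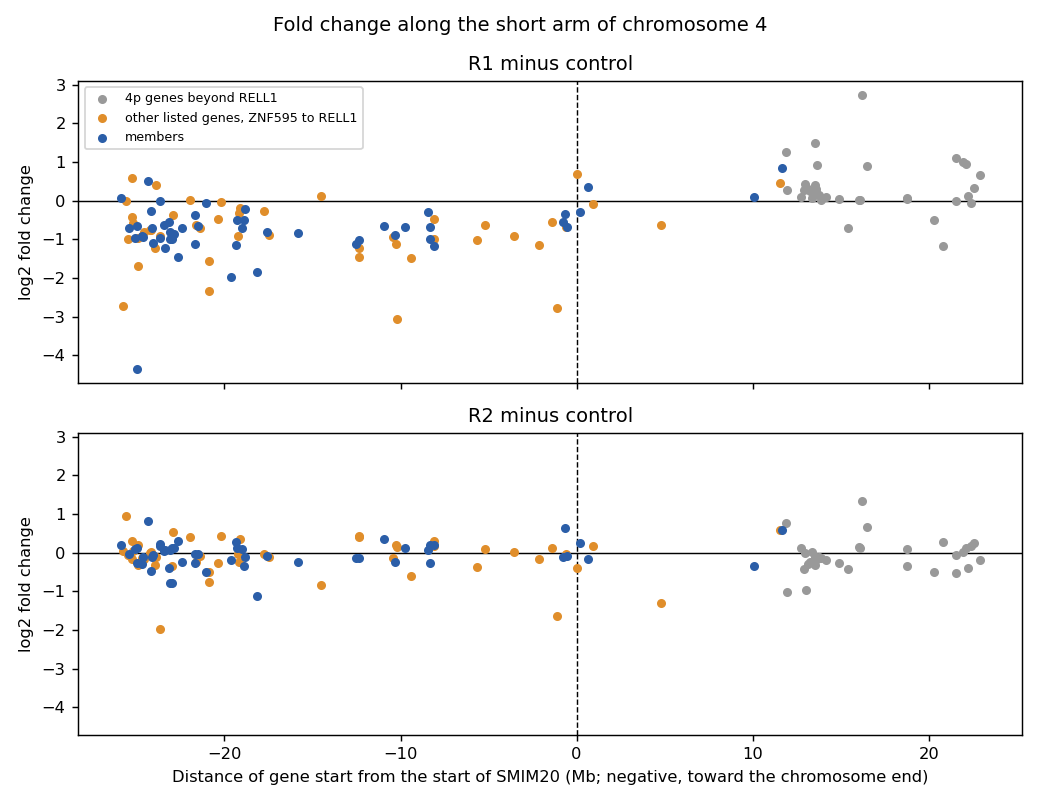
Log2 fold change against control of the listed 4p genes, R1 above and R2 below, by distance of the gene start from the start of SMIM20 in Mb (negative toward the chromosome end). Members (blue) and other genes of the stretch (orange) mostly lie below 0 in R1 left of the dashed line, with medians of -0.76 and -0.89, and scatter around 0 in R2.

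Along the outer part lower values were found in each 5 Mb bin. The median log2 fold change of all listed genes was -0.77 in the first 5 Mb (47 genes), -0.72 from 5 to 10 Mb (17 genes), -1.07 from 10 to 15 Mb (6 genes), -0.95 from 15 to 20 Mb (13 genes) and -0.96 from 20 to 25 Mb (6 genes). Bins with fewer than 20 genes are thin, and all of these bins lie in the stretch that was picked for low R1 values. Across the 48 outer members Spearman's correlation of the fold change was 0.00 with position and -0.26 with the control level; these points share the same 12 libraries.

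Among regulators of chromatin and transcription, 6 of 10 members were called lower in R1. Counts in this and the following classes stand beside 75% of all members and 21.4% of all genes called lower. Of all genes, 22.4% were called higher. The classes hold few members, all chosen for low R1 values, so nothing is read from these counts. WHSC1, which methylates histone H3 at lysine 36, read 259, 186, 236 and 278 in R1, 457, 377, 571 and 558 in R2 and 531, 521, 476 and 487 in control. All 4 R1 libraries lay below every other library, and the R1 mean was 47.6% of control (log2 fold change -1.08, SE 0.15). LCORL, a DNA-binding partner of Polycomb complexes, read 5.12, 6.10, 5.01 and 7.35 in R1 against 11.9, 12.7, 13.7 and 17.8 in control (-1.18, SE 0.16), again without overlap.
MED28, a subunit of the Mediator complex that bridges transcription factors and RNA polymerase II, had an R1 mean of 31.5 ± 1.62 against 62.8 ± 3.67. CTBP1, a corepressor, had 73.0 ± 9.98 against 138 ± 4.31, and BOD1L1, which protects stalled replication forks, 54.2 ± 9.25 against 109 ± 7.80. TADA2B, an adaptor of the SAGA histone acetylase, was less reduced, at 69.7% of control.

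The other 4 members of this class were not called in R1. MXD4, a MAX partner that opposes MYC, read 28.0, 32.1, 31.9 and 25.7 in R1 and 24.2, 25.6, 35.0 and 33.8 in control, with full overlap. MSX1, a homeobox factor, read 29.4, 37.3, 27.1 and 21.4 in R1 against 25.2, 30.2, 31.7 and 29.99 in control. ZNF595, a zinc finger gene at the outer end whose close paralogs could share reads with it, read 24.7, 25.8, 20.6 and 22.6 against 21.6, 22.4, 20.6 and 23.9. These 3 genes lie inside the outer part, and their R1 libraries overlapped control. Those of MXD4 all lay within the control range, while MSX1 and ZNF595 had R1 libraries both above and below it. RBPJ, the DNA-binding effector of Notch signalling, lies beyond the border and read 202, 188, 96.3 and 148 in R1 against 175, 181, 182 and 208 in control, so that 1 R1 library was low and the groups overlapped.

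Among ubiquitin ligase and cell division genes 6 of 7 members were called lower. These were MAEA, a subunit of the CTLH ligase, at 52.2% of control, FBXL5, the iron-sensing F-box protein, at 53.5%, and HAUS3, a subunit of the augmin complex of the spindle, at 52.3%. ANAPC4, a subunit of the anaphase-promoting complex, stood at 62.2%, RNF4, a ligase for SUMO-tagged proteins, at 64.9%. MRFAP1, a small nuclear protein with a close paralog next to it that could share its reads, was among the 3 members with the highest values and read 156, 127, 188 and 159 in R1 against 220, 240, 210 and 212 in control. HAUS3 varied most, at 11.6, 4.56, 8.50 and 10.9 in R1 against 19.7, 19.1, 14.3 and 14.9 in control, and R1 replicate 2 was its lowest library. TMEM129, a ligase of the endoplasmic reticulum, was the member of this class that was not called. It read 55.3, 51.3, 63.2 and 55.1 in R1 against 64.9, 65.6, 73.2 and 64.7 in control, lower in each R1 library but by a small margin.

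All 4 members with roles in ribosome assembly and translation were called lower. NOP14, which helps build the small ribosomal subunit, read 77.8, 65.5, 84.7 and 76.6 in R1, 142, 165, 174 and 181 in R2 and 172, 162, 139 and 140 in control, and its R1 libraries were the lowest of all. NOP14-AS1, on the opposite strand, is listed as well (-0.98), and whether the counting used strand is not given in the sources used here. Reads of the pair therefore cannot be told apart where the 2 genes overlap, from 2937936 to 2951078. The same holds for CTBP1 and CTBP1-AS2 (-0.91) in their shorter overlap, from 1249440 to 1250355. Other members overlap listed genes as well. Among them are FBXL5 with FAM200B (15636791 to 15681569), LCORL with NCAPG (17841187 to 17844865) and RELL1 with C4orf19 (37586304 to 37593510). LYAR, a nucleolar factor of ribosome production, read 50.4, 39.1, 67.0 and 58.7 in R1 against 124, 116, 107 and 111 in control. SEPSECS, which completes the tRNA for selenocysteine, and CPEB2, which controls translation of polyadenylated mRNAs, stood at 65.1% and 63.2% of control, and CPEB2 was called although 1 of its R1 libraries (10.3) lay above the lowest control library (10.2).

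DGKQ, the diacylglycerol kinase theta, was nearly without reads in R1. It read 0, 0.0878, 0 and 0.0618 in R1, 8.69, 9.92, 9.02 and 7.30 in R2 and 9.70, 11.8, 10.8 and 9.82 in control. The 4 R1 libraries held 4 reads together, against 939 in control, a ratio of 324 (exact 95% counting interval 126 to 1192, covering counting error only). No other member came close to this.
Among the other enzymes, MAN2B2, a lysosomal mannosidase, read 14.1, 17.7, 21.9 and 21.6 in R1 against 37.1, 37.8, 49.5 and 43.3 in control. PIGG, of GPI anchor synthesis, stood at 61.3% of control, ACOX3, a peroxisomal oxidase, at 55.4%, and LAP3, an aminopeptidase, at 63.0%. QDPR, which regenerates tetrahydrobiopterin, was not called and read 33.3, 25.4, 42.6 and 33.9 against 46.2, 40.2, 40.2 and 37.1. PI4K2B, a phosphatidylinositol 4-kinase, was not called either, though each of its R1 libraries (6.09, 4.91, 6.72 and 6.21) lay below each control library (6.89, 9.38, 7.40 and 7.25).

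WFS1, the wolframin protein of the endoplasmic reticulum, had the largest reduction after DGKQ. It read 12.8, 18.4, 16.5 and 14.5 in R1, 51.4, 74.9, 47.1 and 48.7 in R2 and 50.6, 58.8, 76.1 and 68.0 in control, so that R1 stood at 24.5% of control, well under the typical member. In the same class of organelle membrane genes TMEM175, a lysosomal potassium channel, stood at 62.6%, LETM1, an ion exchanger of the inner mitochondrial membrane, at 60.8%, and the transporter gene MFSD10 at 54.3%. GRPEL1, a cochaperone of mitochondrial import, was not called (39.5, 36.5, 62.2 and 50.5 in R1 against 56.3, 54.4, 51.0 and 52.7), nor was TMEM128 (9.61, 5.70, 7.52 and 8.53 against 9.86, 10.5, 9.38 and 10.4). GRPEL1 had R1 libraries on both sides of control, and TMEM128 overlapped it in 1 library.

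Of 8 vesicle traffic genes 7 were called lower. HTT, huntingtin, had an R1 mean of 62.6 ± 3.26 against 115 in control (lowest 96.2, highest 134) and 125 ± 11.4 in R2. GAK, which strips clathrin from vesicles, stood at 51.0% of control and at 47.8% of R2. RAB28, a small GTPase, read 9.93, 9.17, 10.7 and 11.03 in R1 against 19.6, 21.3, 25.6 and 25.4 in control. STX18, LRPAP1, TBC1D14 and TAPT1 stood between 60.5% and 63.2%. TBC1D19, a relative of Rab-inactivating proteins beyond the border, was not called and read 2.77, 2.76, 2.24 and 2.78 in R1 against 1.64, 2.41, 1.51 and 2.31 in control.

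Of 10 cytoskeleton and signalling genes 7 were called lower and 2 higher in R1. AFAP1, an actin filament protein, read 10.1, 15.5, 9.87 and 11.8 in R1 against 34.3, 44.4, 47.2 and 47.7 in control, at 27.3% of the control mean. RGS12, which switches off G protein signals, read 2.09, 1.40, 2.28 and 2.72 against 6.93, 6.46, 7.09 and 6.09. FAM193A read 16.9, 13.9, 19.2 and 19.8 against 43.8, 41.1, 42.0 and 37.4. In all 3 genes the groups did not overlap.
ADD1, adducin of the membrane skeleton, stood at 50.9% of control, and WDR1, which promotes actin disassembly, read 205, 241, 319 and 294 against 417, 426, 523 and 508. The 2 members called higher were FAM53A (3.74, 2.98, 3.27 and 3.46 in R1 against 2.36, 2.76, 1.46 and 2.36) and RELL1, a relative of a TNF receptor family member (8.30, 10.2, 5.35 and 6.80 against 3.97, 4.24, 3.28 and 4.25). FAM53A lies within the outer part, where it was the only listed gene called higher. Its call was lost by DESeq2, with the replicate number as a block, and when any of R1 replicates 1, 3 and 4 or control replicates 1, 3 and 4 was left out (adjusted p up to 0.12). ARAP2, a signalling protein, was not called (27.4, 22.9, 11.4 and 21.6 against 19.2, 18.5, 16.6 and 19.3).

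**Figure D3:**
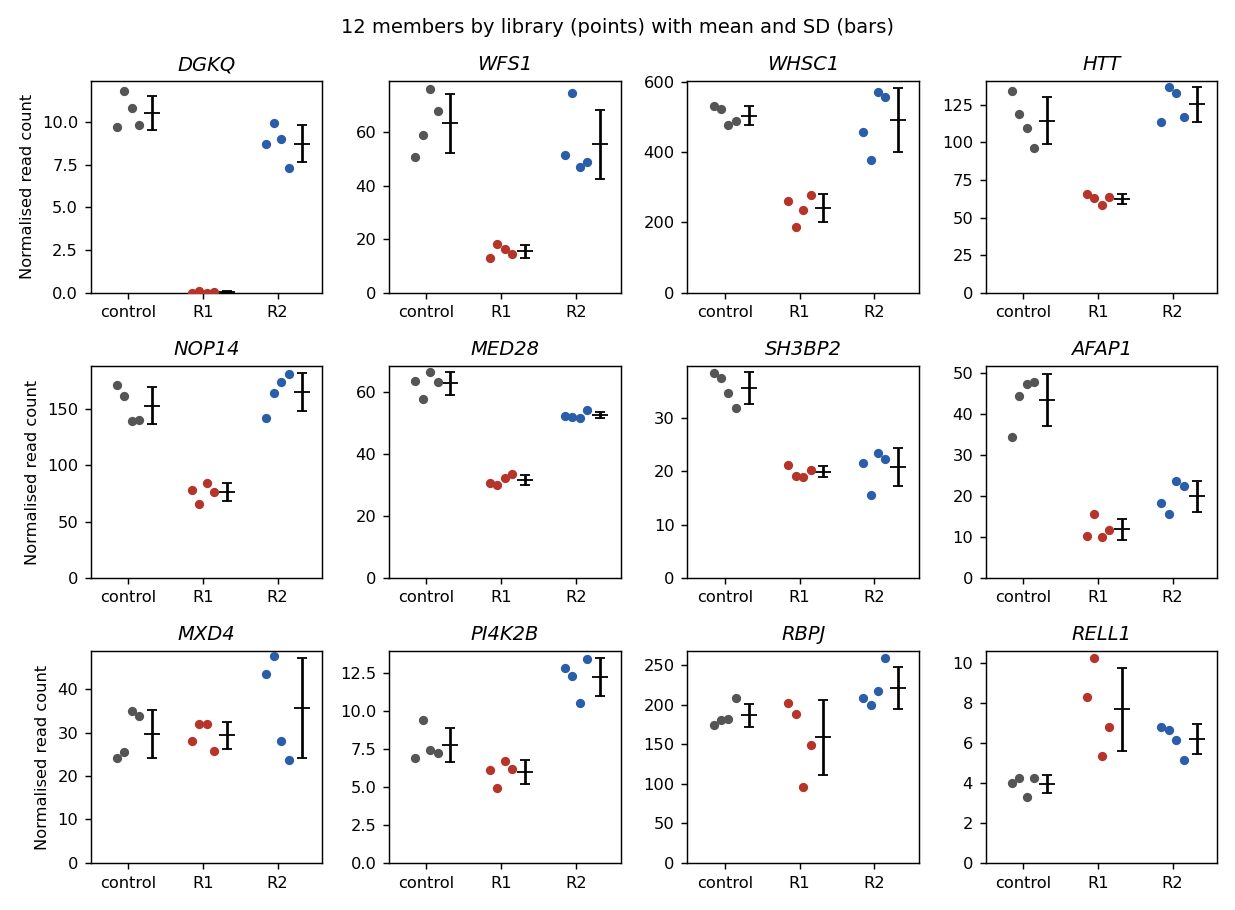
Normalised read counts of 12 members in the 4 libraries of each group (points), with mean and SD (bars), each panel from 0. DGKQ sits at 0 to 0.0878 in R1, 7 others from WFS1 to AFAP1 lie below all control libraries, and MXD4 and RBPJ overlap control.

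R2 against control was not a contrast of the rule, but both groups' values entered the choice of members, as the R1 values had to lie below them. Here 7 members fell and 3 rose of 52, where 14.8% of all genes fell and 13.6% rose, and 42 did not pass. The median log2 fold change was -0.05, against 0.03 over all genes. Since the choice works against members low in R2 and toward members high in control, nothing is read from these counts or this median. The adjusted p-values of single members below carry the same limit. Each fold change below is from limma, with all 12 libraries in the fit and p-values adjusted over 12931 genes.

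The largest fall in R2 was in AFAP1, which read 18.2, 15.5, 23.5 and 22.4 against 34.3 to 47.7 in control, a log2 fold change of -1.11 (SE 0.17, adjusted p = 0.00023). MFSD10 fell as well (52.5, 52.7, 53.3 and 40.5 in R2 against 70.8, 73.6, 109 and 93.0, -0.78, SE 0.14, adjusted p = 0.00096). SH3BP2, an adaptor of tyrosine kinase signalling, fell by the same amount (21.7, 15.6, 23.6 and 22.4 against 38.5, 37.6, 34.8 and 31.9, -0.78, SE 0.13, adjusted p = 0.00043). In all 3 genes every R2 library lay below every control library.
The R1 libraries of SH3BP2 (21.3, 19.1, 19.0 and 20.4) and MFSD10 (46.3, 50.9, 49.5 and 41.0) lay inside the R2 range of the same gene. In both genes a single R2 library set the low end of that range, replicate 2 for SH3BP2 (15.6) and replicate 4 for MFSD10 (40.5). All R1 libraries lay below the remaining R2 libraries. MSX1 fell in R2 (20.1, 21.5, 20.9 and 19.5, -0.50, adjusted p = 0.018), a call lost without control replicate 3 (adjusted p = 0.0546), and TMEM129 fell (55.4, 52.5, 47.1 and 39.8, -0.47, adjusted p = 0.0065). These 2 members were not called in R1.

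MED28 and TADA2B passed narrowly in R2 (-0.25, adjusted p = 0.039, and -0.35, adjusted p = 0.044). The MED28 call was lost without any 1 of the R2 libraries or without control replicate 1, 3 or 4, and the TADA2B call without any 1 R2 library, R1 replicate 4 or control replicate 1, 2 or 4. The highest of these adjusted p values were 0.109 for MED28 and 0.132 for TADA2B. Both were lost with values centred on each library's median. TNIP2, an inhibitor of NF-kB, missed the threshold (-0.40, adjusted p = 0.0503), and CTBP1 did as well (-0.29, adjusted p = 0.053). Both passed by DESeq2 (adjusted p = 0.0313 and 0.0332) and in a fit of the groups compared only with limma (0.0213 and 0.0192). TNIP2 also passed without R1 replicate 1, 2 or 3, R2 replicate 3 or control replicate 1, and CTBP1 without R1 replicate 2 or 3 or R2 replicate 2.
PI4K2B rose in R2 to 12.8, 12.3, 10.5 and 13.4 (0.64, SE 0.14, adjusted p = 0.0038), and FAM53A to 4.62, 3.86, 5.55 and 3.30 (0.82, SE 0.19, adjusted p = 0.0044). RELL1 rose to 6.80, 6.66, 6.15 and 5.14 (0.59, SE 0.18, adjusted p = 0.024), a call that needed R2 replicates 1 and 2 and control replicate 3 (adjusted p up to 0.0743 when 1 of them was left out). Every R2 library lay above every control library in each of these 3 and in 4 members in all (18.0% of all genes), and below in 9 members (16.8% of all genes).
For members that did not pass, the interval of the difference was often narrow. It ran from -0.37 to 0.26 for WHSC1, -0.10 to 0.37 for HTT, -0.13 to 0.35 for NOP14 and -0.56 to 0.04 for DGKQ (95%, log2 scale), none of which reaches the R1 value of the same gene.

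The 4 members beyond the border differed among the R1 libraries. In each of them R1 replicate 3 was the lowest R1 library, with RBPJ at 96.3 against 148 to 202 and ARAP2 at 11.4 against 21.6 to 27.4. This held for 31 of the 43 listed 4p genes beyond the border (72.1%), against 28.7% of all genes. The median log2 difference of R1 replicate 3 from the mean of the other R1 libraries was -0.40 over these 43 genes, -0.14 over the long arm and 0.00 over all genes. For the 48 members before the border it was 0.12, with R1 replicate 3 the lowest in 9. In R1 replicates 1, 2 and 4 the genes beyond the border had a median of 0.38 above control, and in replicate 3 of -0.12. This pattern was noticed in the values, rests on 1 library and has no test.

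Some genes of the outer part outside the member list were nearly silent in R1, as DGKQ was. BST1, an ADP-ribosyl cyclase, read 0.340, 0.614, 0.456 and 0.278 in R1 against 8.09, 4.95, 8.18 and 7.72 in control, and 6.95 to 8.86 in R2. ZNF718 had 2 reads in R1 and 265 in control, a ratio of 183 (95% counting interval 50.2 to 1519), and 2.33 to 3.56 in R2. CCDC149 had 9 reads against 309 (ratio 47.4, interval 24.7 to 105), and was low in R2 as well (0.145, 0.419, 1.78 and 1.61 against 2.88 to 4.31 in control). SMIM20 and C4orf19, the 2 genes of the stretch outside the list that were called higher in R1, both lie beyond the border (0.68 and 0.46). C4orf19 overlaps the member RELL1, so the rises of this pair may share reads. The C4orf19 call was lost without R1 replicate 1 or 2, without control replicate 1 or 3, and in a fit of the groups compared only (adjusted p up to 0.0988).

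Genes that work with the members but lie outside the stretch were read from 13 lists. Of 185 listed partners 35 fell and 38 rose in R1 (median 0.02 on the log2 scale), near the 21.4% and 22.4% of all genes. For NOP14 (49.7% of control) the 28 listed partners in small-subunit processing had a median of 0.08, with 1 fallen and 6 risen, among them RCL1 (0.77, limma adjusted p = 0.00059) and UTP18 (0.55, adjusted p = 0.0015). For MAEA (-0.93) the 11 CTLH partners had a median of 0.13, with GID4 lower (-0.74, adjusted p = 0.00058) and GID8 higher (0.39, adjusted p = 0.0017). For ANAPC4 (-0.68) the 15 partners had a median of 0.24, with 0 fallen and 4 risen, led by ANAPC11 (1.61, adjusted p = 1.8e-06) and ANAPC2 (0.48, adjusted p = 0.01). For HAUS3 (-0.96) the 6 augmin partners had a median of -0.11. HAUS5 fell (-0.50, adjusted p = 0.012) and HAUS4 rose (0.35, adjusted p = 0.039), the latter call lost without any 1 of R1 replicates 1 to 3 or of the control libraries (adjusted p up to 0.126). The 4p subunits were chosen for low values in R1 and the partners were not, so the distance between them is a description only.

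Other lists held single genes that fell. The counts below stand beside the 21.4% of all genes that fell and the 22.4% that rose, and nothing is read from them. Of 30 Mediator partners of MED28 8 fell and 5 rose, with MED21 from 38.3 ± 2.31 to 13.7 ± 2.26 (-1.46, limma adjusted p = 1.2e-06) and MED25 from 63.4 ± 6.29 to 31.98 ± 3.45 (-0.98, adjusted p = 1e-05). Of 19 SAGA partners of TADA2B 8 fell and 2 rose, with TAF10 (-1.08, adjusted p = 1.2e-05) and SUPT7L (-0.64, adjusted p = 5.2e-05) lower. Of 9 MAX network partners of MXD4 4 fell and 0 rose, MYC among them (60.5 ± 15.5 against 115 ± 31.0, -0.92, adjusted p = 0.0054) with MNT (-0.97, adjusted p = 2.9e-05), while MXD4 itself was at the control level.
Of 20 Notch genes around RBPJ 7 rose, 4 fell and 9 did not pass, where 22.4% of all genes rose and 21.4% fell. NOTCH1, a Notch receptor, went from 0.899 ± 0.181 to 19.2 ± 3.12 (3.81, adjusted p = 1e-08) and JAG1, a ligand, from 0.618 ± 0.318 to 5.38 ± 0.713 (2.42, adjusted p = 3.6e-07). Notch genes are also active in vessel cells, and the 5 listed endothelial markers summed to 414 to 551 in R1 against 166 to 208 in control, whose part in this was not tested.

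The other 5 lists were small, and all counts here stand beside the 22.4% of all genes that rose and the 21.4% that fell. Tetrahydrobiopterin enzymes beside QDPR had 4 risen and 1 fallen of 6, with PCBD1 (2.37, limma adjusted p = 0.00042) and PTS (1.06, adjusted p = 0.00026) higher. Iron regulators beside FBXL5 had 4 risen and 2 fallen of 9, with SKP1 (0.80, adjusted p = 0.00018) and RBX1 (0.62, adjusted p = 0.0028), both parts of the ligase in which FBXL5 works. Selenocysteine synthesis beside SEPSECS had 1 and 1 of 7, with SEPHS2 (0.61, adjusted p = 0.00016) up and EEFSEC (-0.88, adjusted p = 0.00024) down. The mitochondrial import motor beside GRPEL1 had 0 risen and 1 fallen of 10, TIMM21 (-0.57, adjusted p = 0.012). GPI anchor synthesis beside PIGG had 2 risen and 3 fallen of 15, with PIGF (0.79, adjusted p = 0.00022) and PGAP2 (-0.79, adjusted p = 0.00017). Among 38 listed paralogs of members on other chromosomes 7 rose and 6 fell, with a median of -0.00. ADD3, the paralog of ADD1, fell (-0.65, adjusted p = 0.00017), and so did RELL2, the paralog of RELL1 (-1.30, adjusted p = 3.6e-05).

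**Figure D4:**
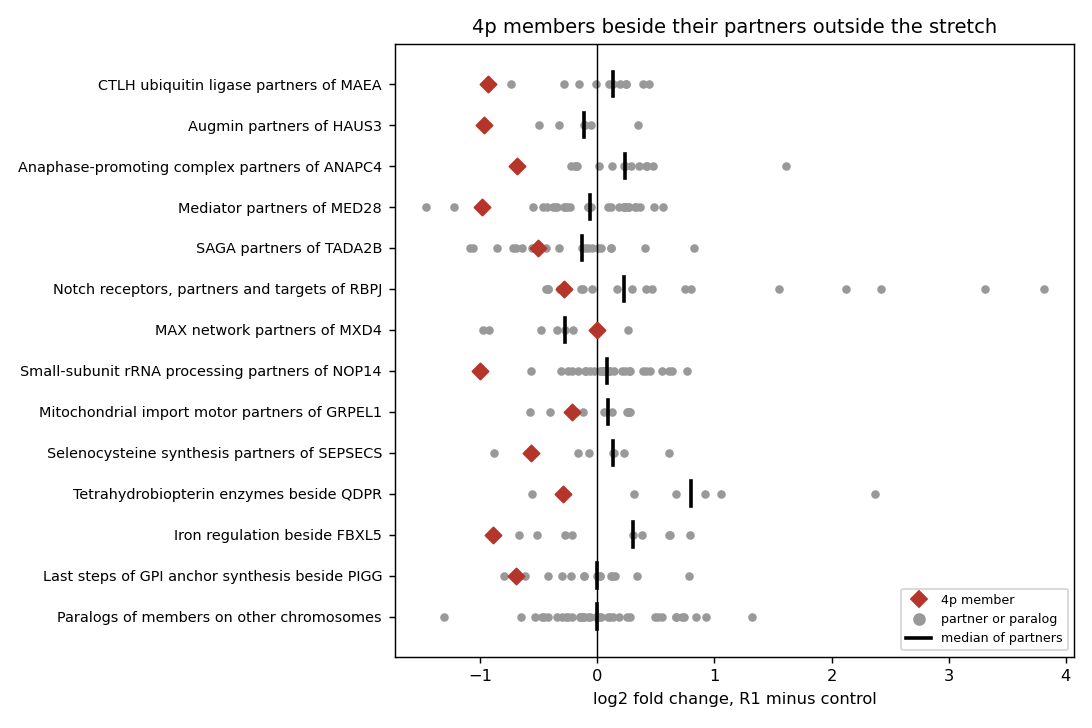
Log2 fold change of R1 against control for members (red diamonds), their listed partners or paralogs elsewhere (grey points) and the partners' median (black bar), 1 list per row. The 4p subunit lies left of the partners' median in each partner list but that of MXD4, and the medians lie between -0.27 and 0.80. The members were chosen for low R1 values, the partners were not.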

How the data were processed

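The authors deposited 1 file per library with a gene symbol and a normalised signal for 12931 genes (12929 distinct symbols). The submitters' processing notes name STAR, edgeR and the GRCh38 build, and their versions are not given in the sources used here. Each library's values were multiples of 1 smallest step (100% of them, tolerance 0.001 reads), which gave back the reads. The deposited signal was proportional to reads per total with edgeR's TMM factors.

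Signal was compared as log2(value + 0.5) with limma 3.58.1 in R 4.3.3 (empirical Bayes with trend), all 12 libraries and 3 group means in 1 fit, two-sided, Benjamini-Hochberg over 12931 genes, called at an adjusted p under 0.05. The added 0.5 understates changes of genes with low values. The count test planned for raw counts was run on the recovered reads as an alternative: edgeR 4.0.16 called 2681 genes lower and 2964 higher in R1 against control. Depth was 20003891 to 39009384 reads, and 3 reads equal a value of 0.0728 to 0.158. Genes were placed with RefSeq (GRCh38.p14, 94.4% placed, 2 members by an older symbol). The fit was tested on simulated data.

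Members and lists were chosen with earlier results of these data known. Every member may be named. Values in every library are given for the 10 largest reductions in R1, the members not called in R1, the largest calls in R2 and the highest levels. Genes outside the list were named as the nearest to the stretch's end, the 3 largest reductions and any rise in the stretch, and up to 2 calls per list with the smallest p. Others were chosen after their values were seen.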

Additional observations from a re-analysis of the deposited data

Results flagged for a closer look

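Among 156 groups of 4 libraries, 5 held a library far from the other 3, by a gap over the whole range above Dixon's 95% critical value for 4 samples. Chance alone would pick out about 1 in 20 such groups. TMEM129 read 73.2 in control replicate 3, against 64.7 to 65.6 in the other control libraries. MFSD10 read 40.48 in R2 replicate 4 (52.5 to 53.3 in the others), and WFS1 read 74.9 in R2 replicate 2 (47.1 to 51.4). TAPT1 read 10.53 in R1 replicate 1 (7.67 to 7.94), still below all control libraries. TBC1D19 read 2.24 in R1 replicate 3 (2.76 to 2.78), the library that was also lowest of R1 for RBPJ, ARAP2 and RELL1.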

How the results depend on the processing

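Scaling by TMM, pseudocounts of 0.1 and 1 and a mean of at least 1 changed no call among 153 values of named genes. TMM is the deposited scaling itself. Reads per library total without scaling factors (unscaled) were added after seeing the data. There the members' median log2 fold change in R1 was -0.64 (-0.71 as deposited), and that of R2 against R1 was 0.64, or 0.73 when values were centred on each library's median. Members called higher in R1 numbered 1 in place of 2 with a mean of at least 5, by DESeq2 and with a replicate block, and 1 member in place of 2 was lower in R2 than in R1 with a mean of at least 5. Other genes of the stretch called lower in R2 against control numbered 1 with a mean of at least 5 and 5 in a fit of the groups compared, where 1 was called higher in R1. Of 4p genes beyond RELL1, 1 was called lower in R1 with a mean of at least 5 or unscaled values. The labels name nothing that same-numbered libraries share. Correlations of same-numbered libraries ran from -0.310 to 0.387. Between R1 and R2 they were 0.114, 0.108, 0.074 and 0.133, and 3 of the 4 R1 libraries correlated best with their own number there, a hint from the data and not the design. With the block, 4 of 153 named values changed side, of which the TADA2B call was lost in R2 (adjusted p = 0.0659) and the TNIP2 call gained (adjusted p = 0.0222).

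Leaving out 1 library at a time gave 39 to 42 members called lower and 1 to 2 higher in R1, with medians of -0.76 to -0.69, 5 to 9 lower and 2 to 3 higher in R2 against control, and 1 to 3 lower in R2 than in R1. For other genes of the stretch, 1 to 2 were higher in R1, 2 to 5 lower in R2 and 2 to 5 higher in R2, and beyond RELL1 1 to 3 were lower in R1. Some differences that were not called changed sign. For PIGG in R2 they were 0.0076 unscaled, 0.0043 median-centred and -0.0540 to 0.0131 without 1 library. For MXD4 in R1 they were -0.0139 median-centred, -0.0098 by edgeR, -0.0306 by DESeq2 and -0.0874 to 0.0864 without 1 library, and for MSX1 in R1 0.0259 unscaled and -0.1798 to 0.0826. Without 1 library ARAP2 ran from -0.0449 to 0.3672 in R1. In R2 WHSC1 ran from -0.1359 to 0.0641, RNF4 from -0.0116 to 0.1040, STX18 from -0.1014 to 0.0176, BST1 from -0.0132 to 0.2110 and ZNF718 from -0.0242 to 0.1696. The cause was not tested. With 4 libraries a group, and values under about 0.158 resting on 3 reads or fewer, small changes of genes at low values were not detectable at this depth.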

Other observations

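Genes of the stretch outside the member list also served cell division, transcription and metabolism, and 4 of them were chosen for description after their values were seen. FGFRL1, a receptor-like relative of the FGF receptors, read 29.9 ± 5.35 in R1, 110 ± 18.3 in R2 and 95.8 ± 4.14 in control (SD, n = 4 each). NELFA, a subunit of the factor that pauses RNA polymerase II, read 16.96 ± 1.64 in R1, 32.5 ± 5.09 in R2 and 40.6 ± 3.49 in control. TACC3, which stabilises the mitotic spindle, read 95.1 ± 22.8 in R1 against 161 ± 15.6 in R2 and 159 ± 11.1 in control. PPARGC1A, a coactivator of mitochondrial gene expression, read 3.93 ± 1.58 in R1, 8.08 ± 1.83 in R2 and 8.998 ± 1.77 in control. Since they were picked after seeing their values, these carry no test.

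A lower position of R1 replicate 3 was also noticed over chromosome 18, which had the lowest such median of the chromosomes. Over its 179 listed genes the median log2 difference of this library from the mean of the other R1 libraries was -0.40, against 0.00 over all genes. It was -0.40 over the 43 genes of inner 4p as well. The other R1 libraries differed between the 2 regions. Replicates 1, 2 and 4 stood at 0.32, 0.28 and -0.21 over chromosome 18, and at 0.21, 0.19 and -0.04 over inner 4p. On chromosome 18 replicate 4 was thus low too.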
